A study of Mus musculus with 7 samples.

Results

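Cerebellar Purkinje and granule cell genes were followed in brain RNA of 7 male mice, through every array probe annotated to Pcp2, Calb1, Slc1a6, Car8, Itpr1, Cbln1, Cbln3, Zic1 or Svep1. These 9 genes were represented by 8 of the 25697 probes in the value table, and the 8 probes stood for 7 of the genes, among 16593 gene symbols in all. No probe of that table carries the symbol Car8 or Itpr1, so neither gene was analysed here. The 4 wild-type mice are C57BL/6J males of 21 weeks. The 3 knockout mice are males of the same strain and age, homozygous for an allele labelled ko, and the series describes them as lacking Duf1220. Each mouse was hybridised to 1 Illumina expression BeadArray as biotin-labelled cRNA, with no pooling given. The labels name the tissue as brain, without stating how much cerebellum each sample held or how the allele was made.

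Purkinje cells are the large inhibitory neurons whose axons form the output of the cerebellar cortex, and granule cells are the small excitatory neurons whose parallel fibres contact them. Granule cells secrete cerebellin 1, which binds presynaptic neurexin and organises their synapses on Purkinje cell dendrites. Purkinje cells in turn carry a dense machinery for glutamate uptake, calcium buffering and calcium release. Pcp2, Calb1, Slc1a6, Car8 and Itpr1 were taken as Purkinje genes and Cbln1, Cbln3 and Zic1 as granule genes. Svep1, which encodes a large extracellular matrix protein, was put in neither list. The 2 neuron types were compared within each array and between the groups.

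Of the 8 probes, 5 lay above an intensity of 16 on all 7 arrays, 1 each for Pcp2, Slc1a6, Cbln1, Zic1 and Svep1. The other 3, for Calb1 and Cbln3, stayed below 16 on every array. An intensity is a background-subtracted linear signal, so values near 0 are the noise of an empty probe. The levels of different probes are not comparable, and only differences between arrays are read below. Since the RNA is from whole tissue, fewer cells of a type and less RNA per cell cannot be told apart.

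The start regions of both measured Purkinje genes are shown because the nuclear receptor RORα, encoded by Rora, is known in the mouse to activate Pcp2 and Slc1a6 in Purkinje cells, and Rora was among the other Purkinje genes read on these arrays. Each window runs from 250 bases before to 50 after an annotated RefSeq start on GRCm38.p6, is written 5′ to 3′ on the strand of the gene, and has the letters AGGTCA, the core of a RORα half-site, in capitals. The Pcp2 window shown is chr8:3625498-3625797 on the minus strand and the Slc1a6 window is chr10:78780246-78780545 on the plus strand.
Pcp2: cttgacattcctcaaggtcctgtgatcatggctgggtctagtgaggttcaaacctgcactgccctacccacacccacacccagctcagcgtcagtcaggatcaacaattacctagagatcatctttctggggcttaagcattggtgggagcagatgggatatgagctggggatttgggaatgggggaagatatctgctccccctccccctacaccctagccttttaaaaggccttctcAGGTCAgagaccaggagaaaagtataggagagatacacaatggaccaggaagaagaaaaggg
Slc1a6: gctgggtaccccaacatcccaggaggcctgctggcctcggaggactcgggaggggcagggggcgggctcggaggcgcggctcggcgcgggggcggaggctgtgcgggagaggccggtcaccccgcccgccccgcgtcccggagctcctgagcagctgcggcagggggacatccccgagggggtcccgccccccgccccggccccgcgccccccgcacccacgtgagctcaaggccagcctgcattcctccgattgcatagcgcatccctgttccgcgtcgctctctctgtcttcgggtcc
This Pcp2 window held AGGTCA 1 time, beginning 12 bases before the start, and the Slc1a6 window held it 0 times on either strand. The table has 4 overlapping windows for 4 annotated Pcp2 starts, of which 3 held the letters and 1 did not. The match at offset -87 in another Pcp2 window is the same genomic site as that in the window shown, so it is counted again. Of 32851 such windows in the table, 5340, or 16.3%, held AGGTCA or its reverse complement TGACCT. The windows differed in base composition, with 51.0% G or C for Pcp2 and 75.7% for Slc1a6. A match of these letters is a description of the sequence and not a binding site.

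As a check on the arrays, the mean correlation with the other arrays over the 12833 tested probes was 0.932 for wild-type array 2, 0.970 for wild-type array 3 and 0.976 to 0.981 for the remaining 5. Differences that move by a large factor without wild-type arrays 2 and 3 are also given without them. The domain named in the series lies in the product of Pde4dip, whose brightest probe read 2157 to 2502 in wild type and 1233 to 1498 in knockout (limma adjusted p = 0.754). Another probe of the gene overlapped between the groups, at 381 to 662 and 441 to 528. A further, dim probe, above 16 on 3 arrays, overlapped as well, at 8.58 to 38.6 and 12.6 to 17.4. The position of these probes on the gene was not examined.

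Slc1a6, the glutamate transporter EAAT4 that clears glutamate at Purkinje cell spines, read lower in all 3 knockout brains than in any wild-type brain. Its intensity was 57.7, 58.3, 63.6 and 54.6 on wild-type arrays 1 to 4 and 48.8, 35.3 and 46.5 on knockout arrays 1 to 3. The wild-type values lay close together, the knockout values were more spread, and the groups did not overlap. The means were 58.6 ± 3.76 (SD, n = 4) and 43.5 ± 7.22 (SD, n = 3). On the log2 scale, with intensities under 16 set to 16, the difference was -0.44 (SE 0.16, 95% interval -0.81 to -0.07), or 1.36-fold lower in knockout on the log2 means. It did not pass across the 12833 probes (limma, Benjamini-Hochberg adjusted p = 0.754). With the arrays split in all 35 ways, the exact permutation p was 0.0286, the smallest value that 4 against 3 arrays allow. A p this small arises only where the groups do not overlap. Slc1a6 was chosen with its separation already known, so this p is not independent evidence. Without wild-type arrays 2 and 3 the difference was -0.38 (95% interval -0.77 to 0.01), and without knockout array 2 it was -0.30 (-0.72 to 0.12). The probe is dim, at 63.6 or less on every array.

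Pcp2, a modulator of G-protein signalling used as a marker of Purkinje cells, had a lower mean in knockout with overlapping groups. Its intensity was 1773, 2105, 2779 and 1651 on wild-type arrays 1 to 4 and 1421, 1559 and 1859 on knockout arrays 1 to 3. The highest readings came from wild-type arrays 3 and 2, and knockout array 3 lay above wild-type arrays 1 and 4. The means were 2077 ± 506 (SD, n = 4) and 1613 ± 224 (SD, n = 3). The log2 difference was -0.34 (SE 0.21, 95% interval -0.83 to 0.14, limma adjusted p = 0.754, exact permutation p = 0.171). It was -0.19 without wild-type array 3 and -0.09 without wild-type arrays 2 and 3.

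Calb1, the calcium buffer calbindin, gave no level at its probe. Its intensities ran from -6.30 to -0.09 over the 7 arrays. The gene is known to be expressed in Purkinje cells and in several forebrain regions, so this probe gives no information on the gene in these brains.

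Cbln1, the granule cell synaptic organiser described above, was steady in wild type. Its intensity was 3755, 3915, 3796 and 3768 on wild-type arrays 1 to 4 and 3847, 4602 and 3965 on knockout arrays 1 to 3. Knockout array 2 stood highest, and knockout array 1 lay below wild-type array 2, so the groups overlapped. The means were 3808 ± 72.9 (SD, n = 4) and 4138 ± 406 (SD, n = 3). The log2 difference was 0.12 (SE 0.14, 95% interval -0.20 to 0.43, limma adjusted p = 0.789, exact permutation p = 0.0571). It was 0.04 without knockout array 2 and 0.13 without wild-type arrays 2 and 3. The part of granule cells in the Cbln1 signal was not tested.

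Zic1, a zinc-finger transcription factor of the granule lineage that is also expressed in meninges and other regions, did not separate the groups. Its intensity was 814, 1289, 752.6 and 976 on wild-type arrays 1 to 4 and 757, 986 and 1201 on knockout arrays 1 to 3. The highest and the lowest reading were both wild type. The means were 958 ± 239.9 (SD, n = 4) and 981 ± 222 (SD, n = 3). The log2 difference was 0.04 (SE 0.24, 95% interval -0.50 to 0.58, limma adjusted p = 0.962, exact permutation p = 0.914). Summed over 5 of 5 measured meningeal markers (Col1a1, Dcn, Lum, Slc6a13 and Foxc1), the intensity was 933 to 1105 in wild type and 963 to 1018 in knockout, and the part of meninges in the Zic1 values was not tested. Cbln3, a cerebellin that granule cells secrete together with cerebellin 1, gave no level. Its probes read -6.14 to 4.64 and -4.81 to 0.95 over the 7 arrays.

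Svep1 read higher in all 3 knockout brains, the opposite direction to Slc1a6. Its intensity was 25.1, 17.5, 24.7 and 25.6 on wild-type arrays 1 to 4 and 35.3, 33.8 and 36.0 on knockout arrays 1 to 3. The knockout values were tight, wild-type array 2 was low, and the groups did not overlap. The means were 23.2 ± 3.87 (SD, n = 4) and 35.04 ± 1.13 (SD, n = 3). The log2 difference was 0.61 (SE 0.18, 95% interval 0.21 to 1.01), or 1.53-fold higher in knockout on the log2 means. It did not pass over all probes (limma adjusted p = 0.754), and the exact permutation p was 0.0286. Svep1 too was already known to stand apart, so this p is not independent evidence. The difference was 0.48 without wild-type array 2 and 0.47 without wild-type arrays 2 and 3. The probe is dim, and at a floor of 32, where all wild-type arrays lie at the floor, the difference was 0.13.

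**Figure D1:**
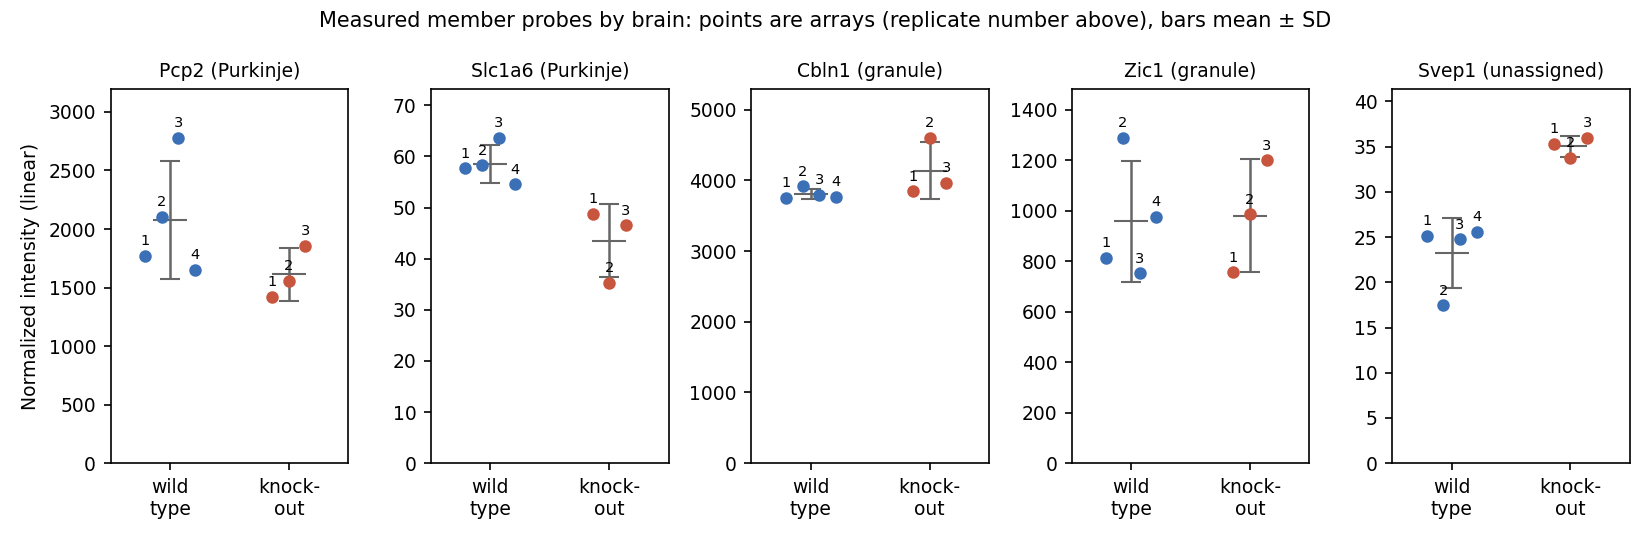
Normalized linear intensity (vertical axes, each from 0) of the 5 measured probes in wild-type (blue) and knockout (red) brains, with 1 point per array and its replicate number, and bars for the mean ± SD (n = 4 and n = 3). Slc1a6 lies at 54.6 or more in wild type and at 48.8 or less in knockout, Svep1 at 25.6 or less and 33.8 or more, and the other 3 probes overlap.

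Of the 5 tested member probes, 0 passed an adjusted p of 0.05, against 0 of all 12833 (0.00%). At an unadjusted p under 0.05 there were 2, against 539 of all probes, or 4.20%. These were Slc1a6, lower in knockout as were 1.99% of all probes, and Svep1, higher as were 2.21%. The groups did not overlap for the same 2, against 948 of all probes, or 7.39%, with 3.94% lower and 3.44% higher. Both genes were already known to stand apart when the 9 genes were brought together, so these counts carry no weight as evidence. The median log2 difference over all tested probes was 0.02.

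The Purkinje pair and the granule pair were then set side by side on each array. The level of a pair is the mean of its genes' log2 deviations from their 7-array means, with Pcp2 and Slc1a6 in one pair and Cbln1 and Zic1 in the other. The Purkinje level was 0.06, 0.19, 0.45 and -0.03 on wild-type arrays 1 to 4 and -0.22, -0.39 and -0.06 on knockout arrays 1 to 3. All knockout arrays lay below all wild-type arrays, by a narrow margin between wild-type array 4 and knockout array 3. Pcp2 alone overlapped between the groups, and Slc1a6 was already known to stand apart, so this separation is not independent evidence. The granule level was -0.14, 0.22, -0.19 and -0.01 in wild-type brains and -0.18, 0.14 and 0.17 in knockout brains, and the groups overlapped.

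The pairs were not ordered alike over the arrays. Wild-type array 3 had the highest Purkinje level and the lowest granule level, knockout array 2 had the lowest Purkinje level beside a granule level above 0, and both levels were high on wild-type array 2. The Purkinje minus granule level was 0.20, -0.03, 0.65 and -0.02 in wild-type brains 1 to 4 and -0.04, -0.53 and -0.24 in knockout brains 1 to 3. Wild-type array 3 and knockout array 2 were the extremes, and all 3 knockout values lay below all 4 wild-type values, though wild-type arrays 2 and 4 lay just above knockout array 1. The wild-type mean was 0.20 ± 0.32 (SD, n = 4) and the knockout mean -0.27 ± 0.24 (SD, n = 3), which differ by -0.47. The group difference was -0.39 for the Purkinje level and 0.08 for the granule level, and -0.24 and 0.12 without wild-type arrays 2 and 3. The genes were chosen with earlier results known, so these levels have no test. The separation of Purkinje minus granule also includes that of Slc1a6.

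**Figure D2:**
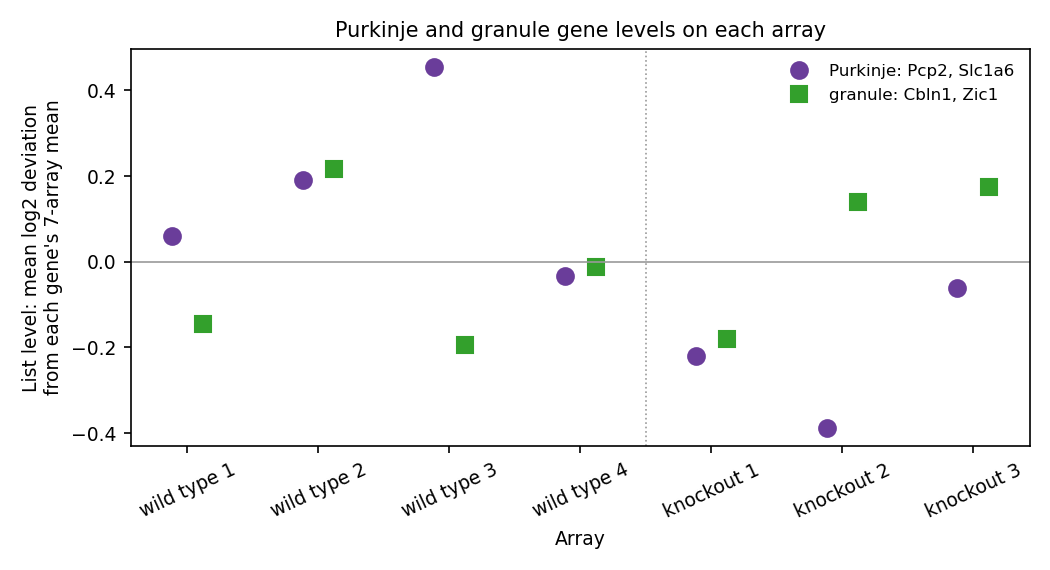
Level of the Purkinje pair (circles) and of the granule pair (squares) on each of the 7 arrays, as the mean log2 deviation from each gene's 7-array mean. The Purkinje level runs from 0.45 on wild-type array 3 to -0.39 on knockout array 2, while the granule level lies between -0.19 and 0.22 in both groups.

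Each Purkinje gene was also divided by each granule gene within an array, giving 4 log2 ratios. The Slc1a6 to Cbln1 ratio was -6.02, -6.07, -5.90 and -6.11 in wild-type brains and -6.30, -7.03 and -6.41 in knockout brains. Its groups did not overlap, and only these differences between arrays have a meaning, since the probes differ in brightness. The difference between groups was -0.56 (exact permutation p = 0.0286, 0.114 after Benjamini-Hochberg adjustment over the 4 ratios). Slc1a6 was already known to stand apart, so this p is not independent evidence. The other 3 ratios overlapped between the groups. Their differences were -0.46 for Pcp2 to Cbln1 (exact permutation p = 0.114, adjusted 0.228), -0.38 for Pcp2 to Zic1 (exact permutation p = 0.314, adjusted 0.314) and -0.48 for Slc1a6 to Zic1 (exact permutation p = 0.171, adjusted 0.228). All 4 differences had the same sign, but they share genes and are not independent.

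Across the 7 arrays, 10 pairs of members were correlated, with exact permutation p-values over 5040 orderings. None had an adjusted p under 0.05, the lowest being 0.181 for Pearson's r and 0.238 for Spearman's rho. Within the Purkinje pair, Pcp2 and Slc1a6 had r = 0.644 (exact permutation p = 0.123, adjusted 0.410) and rho = 0.714 (exact permutation p = 0.0881, adjusted 0.40). The r was 0.632 without wild-type array 3 and knockout array 1 and 0.367 after each group's mean was removed. Within the granule pair, Cbln1 and Zic1 had r = 0.277 (exact permutation p = 0.641, adjusted 0.760) and rho = 0.571 (exact permutation p = 0.20, adjusted 0.40), with r = 0.598 without knockout arrays 2 and 3. Between the pairs, Slc1a6 and Cbln1 had r = -0.889 (exact permutation p = 0.0181, adjusted 0.181) and rho = -0.607 (exact permutation p = 0.167, adjusted 0.40). That relation rests on knockout arrays 2 and 3, without which r was -0.138. Of these, knockout array 2 was the lowest of all 7 arrays for Slc1a6 and the highest for Cbln1. With that array kept, r was -0.873 after each group's mean was removed.

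The genes most like Pcp2 over the 7 arrays were Smpd1, the acid sphingomyelinase gene, with r = 0.981, the DNA polymerase gene Poll with 0.974, Tex261 with 0.973, the zinc transporter gene Slc39a4 with 0.969 and Rps19bp1 with 0.968. All 5 were highest on wild-type array 3, as Pcp2 was, and 4 of the 5 next on wild-type array 2. Among 9078 other genes 96 exceeded r = 0.9 with Pcp2, and none of the 5 is in the Purkinje lists. For Cbln1, used because Cbln3 gave no level, the nearest were Slc25a24 with r = 0.976, Twist2 with 0.966, Adat1 with 0.956, Zc3h10 with 0.941 and Dock1 with 0.937. Each of these 5 was highest on knockout array 2, the array on which Cbln1 was highest, and 6 genes exceeded 0.9. Slc25a24, Twist2 and Adat1 lay at or just above the floor on the other 6 arrays, so their r rests on that 1 reading. These values describe 7 shared arrays and have no test.

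Other Purkinje cell genes were split between the directions. Of 20 listed, 13 had a probe and 12 were tested, with 7 higher and 5 lower in knockout, 0 past the test and a median log2 difference of 0.05. The higher means, at the smallest p, were those of Ppp1r17, a phosphatase inhibitor gene (0.40, SE 0.21), Plcb4, the phospholipase that makes IP3 (0.37, SE 0.22), and Foxp2, a transcription factor (0.26, SE 0.26). The lower were Rora (-0.50, SE 0.28), the P/Q-type calcium channel gene Cacna1a (-0.53, SE 0.31) and the developmental transcription factor gene Lhx1 (-1.01, SE 0.61). The calcium-binding protein gene Pvalb stood at -0.01 and the aldolase gene Aldoc at 0.09, both named after their values were seen. Pcp4 was not above 16 on at least 3 arrays and was not tested.

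The 3 lower genes named above were high on the same wild-type arrays. Rora, brightest probe, read 921, 1769, 1363 and 771 on wild-type arrays 1 to 4 and 803, 756 and 867 on knockout arrays 1 to 3. Lhx1 read 147.5 and 53.5 on wild-type arrays 2 and 3, 32 on wild-type array 1, 19.2 on wild-type array 4 and 15.1 to 31.1 in knockout. Wild-type arrays 2 and 3 were the highest for both, wild-type array 1 lay just above the knockout arrays, and wild-type array 4 lay within their range. Without them the differences were -0.06 for Rora, -0.07 for Cacna1a and -0.09 for Lhx1. The 3 named higher genes depended on these arrays too, with 0.16 for Ppp1r17, 0.13 for Plcb4 and -0.13 for Foxp2 without them. Of the 12 genes, 8 were then higher in knockout, with a median of 0.02. Rora and Cacna1a are also expressed widely outside the cerebellum. The part of Purkinje cells in the signals of this list was not tested.

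Other granule cell genes mostly had higher means in knockout, without a call. Of 16 listed, 15 had a probe and 10 were tested, with 8 higher and 2 lower in knockout, 0 past the test and a median of 0.16. Over all tested probes 53.1% had the higher mean in knockout. Gabra6, the GABA-A receptor subunit of granule cells, read 19.3, 22.3, 16.9 and 36.9 on wild-type arrays 1 to 4 and 26.5, 53.1 and 38.3 on knockout arrays 1 to 3. Wild-type array 4 overlapped the knockout values, and the difference was 0.73 (SE 0.32, limma adjusted p = 0.754). Next came the neurogenic factor gene Neurod1 at 0.29 (SE 0.24) and Calb2, calretinin, at 0.16 (SE 0.16). Neurod1 read 8.82, below the floor, on wild-type array 3. Without wild-type arrays 2 and 3 the differences were 0.50 for Gabra6, 0.08 for Neurod1 and 0.12 for Calb2.

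The granule genes with lower means were Etv1, a transcription factor, at -0.81 (SE 0.73) and Cadps2, a vesicle priming factor, at -0.02 (SE 0.20). Etv1 read 159.6 on wild-type array 2 and 22.6 or less on the other 6 arrays, so its difference comes from 1 array and was -0.01 without wild-type arrays 2 and 3. Without those arrays the granule median was 0.07, with 8 genes higher and 2 lower but not the same genes, since Grin2c went from 0.26 to -0.14 and Cadps2 to 0.05. Pax6, Zic2, Fat2, Mab21l1 and Tlx3 had probes that stayed under the filter on low values. Gabra6, Neurod1, Barhl1, Grm4 and Grin2c were dim, at 53.1, 33.6, 35.2, 33.3 and 71.3 or less. Gabrd, Cadps2, Calb2 and Chn2 read 677 or more on every array. The part of granule cells in the signals of this list was not tested.

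**Figure D3:**
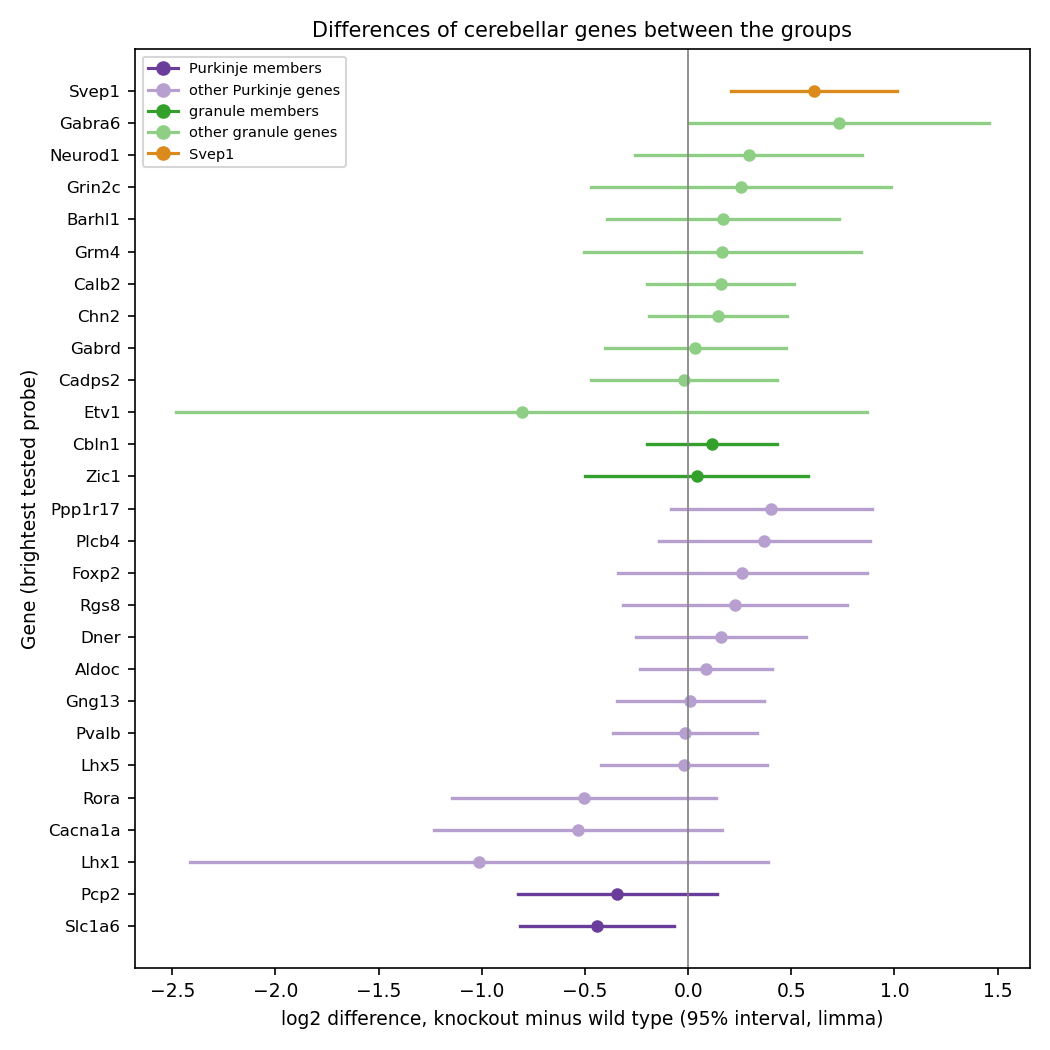
Log2 difference, knockout minus wild type, with its 95% limma interval for Svep1, the 4 measured Purkinje and granule members and the 22 other tested genes of both lists. The intervals of Slc1a6 (-0.81 to -0.07), Svep1 (0.21 to 1.01) and Gabra6 leave out 0, and 0 genes pass after adjustment over all probes.

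Partners of the member proteins were read from lists as well. Of 6 cerebellin partners and relatives, 4 were tested, with 2 higher and 2 lower, 0 past the test and a median of 0.0007. Cbln2, a cerebellin of other brain regions, read 45.8, 54.1, 35.2 and 55.7 in wild-type brains and 61.4, 59.9 and 68.5 in knockout brains. These groups did not overlap, with a difference of 0.43 (SE 0.19, limma adjusted p = 0.754). Cbln4 stood at 0.20 (SE 0.18), and the neurexin genes Nrxn3 and Nrxn2, whose products bind cerebellins, at -0.46 (SE 0.32) and -0.20 (SE 0.19). Without wild-type arrays 2 and 3 these were 0.32 for Cbln2, 0.02 for Cbln4, 0.07 for Nrxn3 and -0.12 for Nrxn2.

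IP3 signalling, in which Plcb4 makes the messenger and IP3 receptors release calcium, had 4 of 9 listed genes tested, 3 higher and 1 lower, 0 past the test and a median of 0.21. Itpr3 differed by 0.34 (SE 0.36) and Ahcyl1, an IP3 receptor binding protein gene, by 0.08 (SE 0.17), while Itpr2 differed by -0.26 (SE 0.22). On wild-type array 2 Itpr3 read 7.53, below the floor, against 33.6 or more on all other arrays. Without wild-type arrays 2 and 3, Itpr3 differed by 0.14, Ahcyl1 by 0.15 and Itpr2 by 0.05, so that all 4 genes were higher in knockout. Itpr1 itself, the main receptor of Purkinje cells, was not analysed here.

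Markers of other regions and of other cell types were read on the same arrays. Of 3 tested striatal markers of 7 listed, 0 were higher and 3 lower, with a median of -0.34. Ppp1r1b, a dopamine-response phosphatase inhibitor gene, stood at -0.39 without overlap, and the dopamine receptor gene Drd1 (-0.34) and Rgs9 (-0.05) overlapped. Without wild-type arrays 2 and 3 these were -0.31, 0.03 and 0.01. The striatal intensities summed to 3796 to 4591 in wild type and 3438 to 3543 in knockout.

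Hippocampal markers, 3 of 6 tested, were all lower, with a median of -0.49 that became -0.13 without those arrays. They summed to 1410 to 2114 and 1277 to 1772, and had Tdo2 under the filter. Brainstem and spinal markers, 4 of 6 tested, went both ways, with 3 higher and 1 lower and a median of 0.25. The glycine receptor gene Glra1 stood at -1.16 without overlap, and Hoxa5 at 0.56, Chat at 0.43 and Hoxb5 at 0.06. Without those arrays they stood at -0.50, 1.03, 0.40 and 0.68, and Slc6a5 was under the filter. Their intensities summed to 152.6 to 447 and 206.8 to 399.

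Choroid plexus markers, 4 of 4 tested, had 1 higher and 3 lower in knockout and a median of -0.18, with all 4 lower without those arrays (median -0.27). Folr1, a folate receptor gene, at -1.35, and the chloride channel gene Clic6, at -0.30, did not overlap between the groups, while Kl stood at -0.05 and Ttr, the transthyretin gene, at 0.17. Without those arrays Folr1 stood at -0.91, Clic6 at -0.31, Kl at -0.22 and Ttr at -0.17. The Folr1 probe is dim, at 32.8 to 73.8 in wild type and 15.2 to 22.6 in knockout, around the floor of 16. The summed intensity of the 4 markers, 6822 to 11046 and 8724 to 10644, was mostly that of Ttr. Of markers of Bergmann glia and unipolar brush cells, other cells of the cerebellar cortex, 2 of 4 were tested, Gdf10 at -0.14 and Slc1a3 at 0.22. They stood at -0.14 and -0.06 without those arrays, summed to 6150 to 9856 and 8214 to 10017, and had Hopx and Eomes under the filter. The part of such differences in tissue content in the Slc1a6 and Svep1 results was not tested. Nor was the part of Bergmann glia in the Slc1a3 signal.

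**Figure D4:**
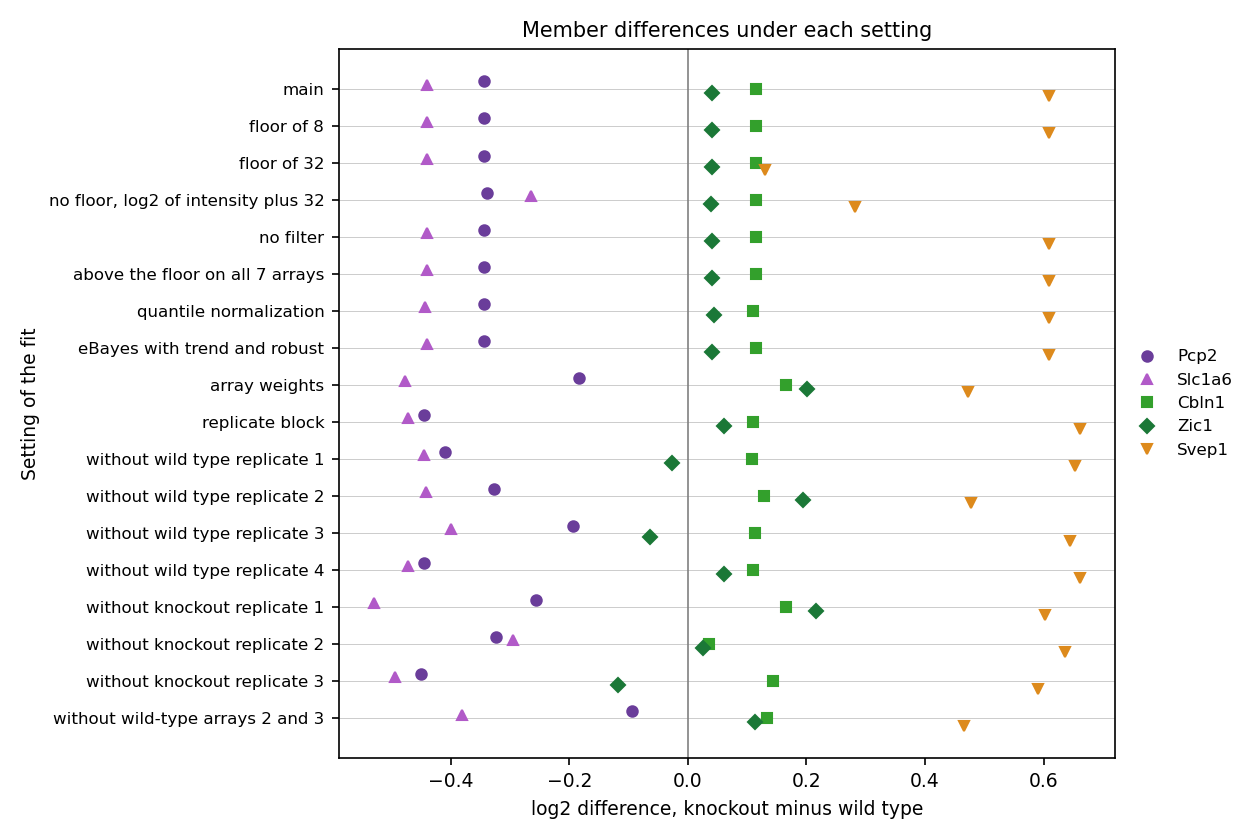
Log2 difference, knockout minus wild type, of the 5 measured members under the main setting and 17 others (vertical axis). Slc1a6 lies between -0.53 and -0.27 and Svep1 between 0.13 and 0.66, Pcp2 reaches -0.09 without wild-type arrays 2 and 3, and Zic1 crosses 0.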

How the data were processed

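The authors' deposited values are normalized intensities on a linear scale, made with GenomeStudio 2011.1 per the submitters' processing notes. Negative values and near-equal quantiles (array medians 14.6, upper quartiles 176.3 to 177.4) show background subtraction and equalisation between arrays. The method of normalization was not stated in the labels. Bead signals in another table were left aside, since none of its 7 column names matches a sample. Probes were named from the platform annotation, which gives 1 symbol for 23978 probes, several for 0 and none for 1719.

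Intensities under 16 were set to 16 and log2 taken, which understates differences of dim probes. The 12833 probes above 16 on at least 3 arrays were compared by limma (version 3.58.1, R 4.3.3) through lmFit and eBayes with group as the only term, two-sided, with Benjamini-Hochberg adjustment over all of them and a threshold of 0.05. Single values had a two-sided exact permutation test over 35 splits. The fit was checked on simulated arrays. Arrays were taken as biological replicates, 1 mouse each, and no pair had more than 0.00389% of its values identical. With 7 arrays the median SE was 0.21, which sets the precision.

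Every member probe was named. A gene with several probes was represented by its brightest tested probe, and from each other list up to 3 genes per direction with the smallest p were named, and for Pcp2 and Cbln1 the 5 genes of highest r. The members and lists were chosen with earlier results of these data known. The planned Pcp2 to Cbln3 ratio was replaced by 4 ratios of measured genes after Cbln3 was seen at the floor, and Cbln1 took the place of Cbln3 in the likeness ranking. Some values beyond the naming rule (Pvalb, Aldoc and the regional markers) were chosen after their values were seen. Alternatives covered the floor, the filter, quantile normalization, the variance model, array weights, the replicate block and left-out arrays. Sequences are from RefSeq on GRCm38.p6, with windows found for 5 of the 9 genes. Figures used matplotlib 3.10.9.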

Additional observations from a re-analysis of the deposited data

Results flagged for a closer look

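Within the 4 wild-type arrays, 1 array stood far from the rest for 2 of the 30 values examined, and chance gives about 1 such case in 20. For Svep1 the log2 intensity was 4.13 on wild-type array 2, while wild-type arrays 1, 3 and 4 read 4.63 to 4.68. For Etv1 it was 7.32 on wild-type array 2, against 4.00 to 4.36. The 3 knockout arrays are too few for this check.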

How the results depend on the processing

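Over all probes 28 passed with array weights, whose estimation stopped before it converged (weights 6.71 for wild-type array 1 but 0.104 for wild-type array 2), and 0 passed under the other 16 alternatives. The count of member probes past the threshold was 0 under all 17, with adjusted p from 0.0618 to 1.00 for Svep1 and from 0.0982 to 1.00 for Slc1a6. Groups did not overlap for Slc1a6 and Svep1 under any of the 18 settings. For these values only quantile normalization could have changed this, so it is not a check by the other settings. Svep1 differed by 0.13 at a floor of 32 and by 0.28 with log2 of intensity plus 32, and Slc1a6 by -0.27 with the latter, as both settings compress dim probes by construction. With an array left out, Zic1 ranged from -0.12 to 0.22 and changed sign without wild-type array 1 (-0.03), wild-type array 3 (-0.06) or knockout array 3 (-0.12). The cause was not tested. With an array left out the difference ranged from -0.47 to -0.30 for the Purkinje level, from 0.01 to 0.19 for the granule level and from -0.58 to -0.32 for Purkinje minus granule. The Slc1a6 to Cbln1 ratio ranged from -0.69 to -0.33, and fewer arrays cannot give an exact permutation p under 0.05. Means over probes changed no level, as each measured member has 1 tested probe. With the replicate number as a block 0 probes passed, and the member differences were -0.47 for Slc1a6 and 0.66 for Svep1. No knockout array is numbered 4, so wild-type array 4 adds nothing to these differences, which are the same as without it. Under the block 1535 probes had an unadjusted p under 0.05, against 539 in the main fit. That count was 2649 with array weights, 1626 without wild-type array 4 and 157 to 1626 with any 1 array left out. Same-numbered arrays deviated with correlations of 0.0797, -0.132 and -0.0371, so the numbers were not taken as pairs.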
